A study of Mus musculus with 4 samples.

Results

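The hematopoietic growth factor receptors were followed here as 9 genes, Kit, Flt3, Csf1r, Csf3r, Csf2ra, Csf2rb, Il7r, Epor and Il3ra, out of 32272 genes measured, together with the 160 chromatin peaks of 174339 that lay within 50 kb of one of them. They were chosen by name and position and not by their values, though with earlier results of these data known. Nuclei came from Lin-cKit+ hematopoietic stem and progenitor cells (HSPCs) of bone marrow and were assayed by single-nucleus multiome, which reads nuclear RNA and open chromatin (ATAC) from the same nucleus. The mice were C57BL/6 males of 8 weeks. In the ligature group (Lig) silk was tied around the maxillary and mandibular second molars of both sides for 14 days, which gives ligature-induced periodontitis, and the control group (Ctrl) had no ligature. Cells of 5 mice were pooled into 1 sample per group, so that no spread between animals could be measured.

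Growth factor receptors carry the outside signals by which marrow progenitors survive, divide and commit to a lineage. Kit, Flt3 and Csf1r are receptor tyrosine kinases, which phosphorylate themselves once their ligand pairs 2 receptor molecules. The others are cytokine receptors without a kinase of their own, which signal through JAK kinases and STAT factors. Among these Csf3r and Epor pair with themselves, Csf2ra and Il3ra bind their ligand and signal through the common beta chain encoded by Csf2rb, and Il7r signals with the common gamma chain.

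The deposited matrix held 18961 barcodes, whose suffixes 1 and 2 mark 2 libraries. No label ties a suffix to the Ctrl or the Lig sample, so the libraries are called library 1 and library 2, are in no group, and were not compared as ligature against control. After filtering, 5905 nuclei of library 1 and 7714 of library 2 remained, 13619 in all, and 72 barcode sequences occurred in both. A nucleus held a median of 1641 RNA molecules (UMIs) in library 1 and 1516.5 in library 2, from a median of 636 and 410 genes. The 3 genes at the ribosomal RNA locus took 43.0% and 53.2% of the UMIs. RNA levels are therefore given as UMI counts scaled to a total of 1000000 outside that locus (CPM), with exact 95% Poisson intervals, which cover counting error only.

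Nuclei were clustered without the receptors and without their peaks. Of 21 clusters, 15 carried enough markers to be named, in 13 classes: stem cell (HSC-like), lymphoid-primed multipotent-like, granulocyte-monocyte progenitor (GMP-like), neutrophil (NeuP-like), monocyte (cMoP-like), conventional and plasmacytoid dendritic (cDCP-like, pDCP-like), basophil (BaP-like), megakaryocyte (MkP-like), erythroid (EryP-like), pro-B-like, B-like and pro-NK/T-like. The B-like cluster also had 6 pro-B markers raised and held Igha and Jchain, genes of antibody-secreting cells, among its leading genes. The other 6 clusters stayed unnamed. Clusters 0 and 1 had Nrg1, F13a1 and Gpr141 among their leading genes, cluster 5 was led by Slco3a1 and Slc24a3, and cluster 9 by Ccnb1ip1 and Zc3h7a with Csf1r among its 10 leading genes. Of the 19 classes and clusters, 17 held at least 50 nuclei in each library and were ranked, and the unnamed clusters 17 and 19, with 8 and 30 nuclei in library 2, were not. Because a class is defined from the same nuclei in which a receptor is counted, class levels are descriptions and have no test.

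All 9 receptors were detected, at 4356 UMIs in library 1 and 3450 in library 2. Kit and Flt3 together gave 63.7% and 57.7% of these. Per kb of gene span, a measure suited to nuclear RNA that is rich in introns, Csf2ra stood highest at 13.6 and 13.2 CPM per kb and Epor lowest at 0.703 and 0.332. Per kb of exon the order was different, with Flt3 highest at 37.3 and 29.6 CPM per kb and Epor again lowest at 1.63 and 0.770. Each receptor was at least 2-fold higher in its highest class than in all other nuclei, as the mean of both libraries, beside 30.9% of the 12898 genes with at least 20 UMIs. These genes are textbook lineage receptors, so this count is a description of a chosen list.

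**Figure D1:**
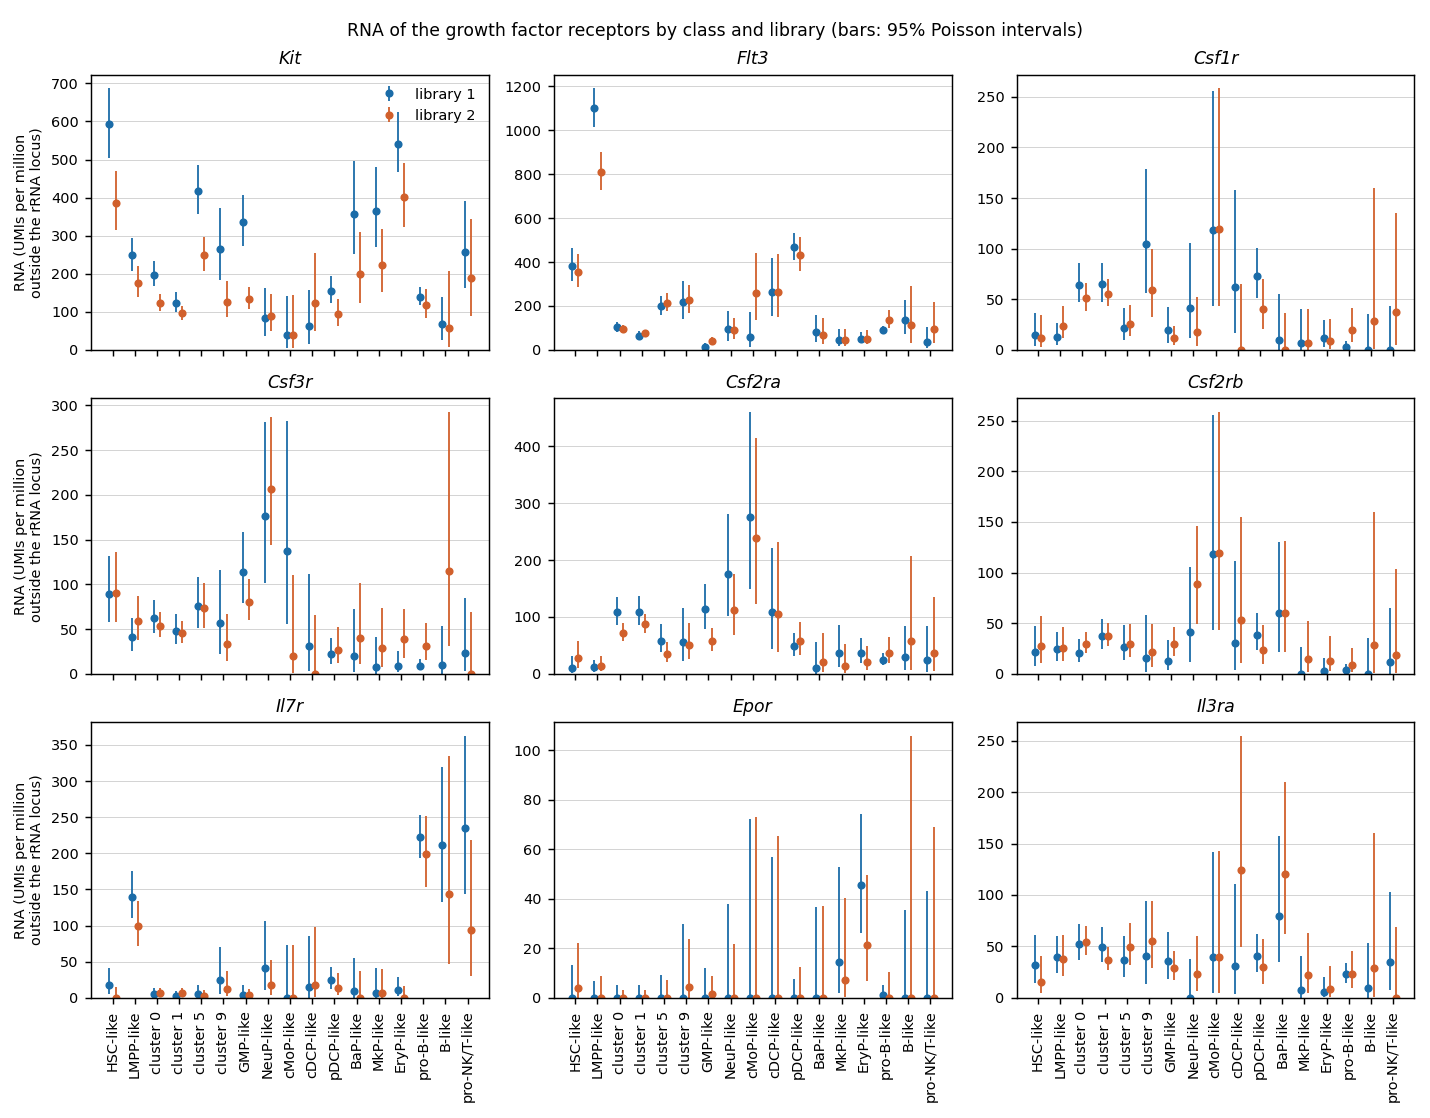
RNA level of each receptor (CPM outside the ribosomal locus, linear axis from 0) in the 17 ranked classes and clusters, with library 1 in blue and library 2 in orange and bars for the 95% Poisson interval. LMPP-like stands for lymphoid-primed multipotent-like. Flt3 peaks in that class at 1102 and 809 CPM, Il7r is high in the 4 lymphoid classes, and Epor is at 0 in most classes.

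Kit, the receptor for stem cell factor, is the gene by whose protein the cells were sorted. UMIs of it were counted in all 17 ranked classes, a background share of free RNA was not measured, and the lowest levels rest on few UMIs. The gene lies at chr5:75574916-75656722 (GRCm38). Its RNA still spanned 12.4-fold between the highest and the lowest class. HSC-like nuclei held 592 CPM in library 1 (165 UMIs) and 387 CPM in library 2 (98 UMIs). EryP-like nuclei held 542 and 401 CPM, and the intervals of these 2 classes, over both libraries pooled, overlapped, so no single highest class can be named. Both lay above cluster 5, at 418 and 250 CPM. At the lower end stood NeuP-like nuclei at 82.7 and 88.6 CPM, B-like at 67.2 and 57.3 CPM and cMoP-like at 39.3 and 39.6 CPM from 2 UMIs in each library. HSC-like nuclei were 2.63-fold over all others in library 1 (interval 2.22 to 3.09) and 2.64-fold in library 2 (2.12 to 3.26). With a coarser clustering and with RNA neighbours alone the log2 fold of HSC-like nuclei was 0.90, below 2-fold. EryP-like nuclei took the first place under both of these, and also without correction between the libraries and with limits on halved ATAC counts.

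Flt3, the receptor for FLT3 ligand in multipotent, lymphoid and dendritic progenitors, was highest in a single class. The gene lies at chr5:147330741-147400489 on the minus strand. Lymphoid-primed multipotent-like nuclei held 1102 CPM in library 1 (590 UMIs) and 809 CPM in library 2 (344 UMIs), with an interval apart from that of any other class. The pDCP-like nuclei followed at 468 and 432 CPM and HSC-like nuclei at 384 and 355 CPM, and the intervals of these 2 overlapped. The cDCP-like nuclei came next at 262 and 265 CPM. At the other end EryP-like nuclei held 51.3 and 51.2 CPM, MkP-like nuclei 43.8 and 43.3 CPM and GMP-like nuclei 13 and 40.3 CPM. Kit and Flt3 were thus both high in HSC-like nuclei, while Kit was high and Flt3 low in the EryP-like and MkP-like classes. In flow cytometry the study gated stem cells as negative for Flt3 protein. The HSC-like cluster had 6 of 10 stem cell markers raised, and whether it also holds multipotent progenitors was not tested. Flt3 itself was among the 10 leading genes of the lymphoid-primed cluster, although it had no part in the clustering.

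Csf1r, the receptor for macrophage colony-stimulating factor (M-CSF) and IL-34, was highest in cMoP-like nuclei, at 118 and 119 CPM. That level rests on 6 UMIs in each library, and its interval overlapped that of cluster 9 at 105 and 59.4 CPM. An unnamed cluster stood first when the nuclei were clustered on RNA alone, without correction between the libraries or with limits on halved ATAC counts. In numbers of molecules most Csf1r lay outside the named classes. The unnamed clusters carried 62.7% of its UMIs in library 1 and 73.8% in library 2, with 37.1% and 49.9% of the nuclei, and clusters 0 and 1 held between 51.3 and 64.7 CPM. HSC-like nuclei held 14.3 and 11.8 CPM from 4 and 3 UMIs.

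Csf2ra (chr19:61223957-61228429, minus strand), the ligand-binding chain of the granulocyte-macrophage colony-stimulating factor (GM-CSF) receptor, followed a similar order. It was highest in cMoP-like nuclei at 275 and 238 CPM (14 and 12 UMIs), followed by NeuP-like nuclei at 176 and 112 CPM and cDCP-like nuclei at 108 and 106 CPM, and the intervals of these neighbours overlapped. With RNA neighbours alone NeuP-like nuclei stood first. The unnamed clusters held 56.3% and 62.7% of its UMIs. It was low in HSC-like nuclei at 10.8 and 27.6 CPM and lowest in lymphoid-primed multipotent-like nuclei at 11.2 and 14.1 CPM. Over the 34 points of 17 classes in 2 libraries, Csf2ra and Csf1r had the highest correlation of any pair of the receptors (Pearson r = 0.51 on log2(CPM + 1)). These points share libraries and depth, and the value is a description.

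Csf2rb (chr15:78325752-78353847, plus strand), the beta chain that the GM-CSF, IL-3 and IL-5 receptors share, was also highest in cMoP-like nuclei, at 118 and 119 CPM from 6 UMIs in each library. NeuP-like nuclei held 41.4 and 88.6 CPM and BaP-like nuclei 59.7 and 60.0 CPM, and pro-B-like nuclei were lowest at 3.85 and 8.63 CPM. NeuP-like nuclei stood first with RNA neighbours alone. None of the 16 pairs of neighbours in its order had separate intervals. The near-identical gene Csf2rb2 lies beside it and reads of both can be hard to tell apart, so the values of Csf2rb are uncertain to that extent. Csf2rb2 itself had 15 and 13 UMIs.

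Csf3r (chr4:126024550-126044440, plus strand), the receptor for granulocyte colony-stimulating factor (G-CSF), was highest in NeuP-like nuclei. They held 176 CPM in library 1 (17 UMIs) and 207 CPM in library 2 (35 UMIs), above GMP-like nuclei at 114 and 80.6 CPM. The intervals of both were separate over the pooled libraries and overlapped within library 1, and with a minimum of 500 genes GMP-like nuclei stood first. The cMoP-like nuclei held 137 and 19.8 CPM from 7 UMIs and 1 UMI, with a pooled interval that met that of NeuP-like nuclei. HSC-like nuclei reached 89.6 and 90.8 CPM, close to the GMP-like level, so this receptor was not low in that class as Csf1r and Csf2ra were. It was low in pro-B-like nuclei at 8.65 and 31.6 CPM.

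Il7r (chr15:9505788-9530176, minus strand), the IL-7 receptor alpha chain needed for early lymphocytes, was carried by lymphoid classes. Pro-B-like nuclei held 222 and 199 CPM (231 and 69 UMIs), pro-NK/T-like nuclei 235 and 93.8 CPM, B-like nuclei 211 and 143 CPM and lymphoid-primed multipotent-like nuclei 140 and 98.8 CPM. The intervals of neighbours among these 4 overlapped, and the next class, NeuP-like, was separate from them at 41.4 and 17.7 CPM. The same 4 classes held 88.8% of Il7r UMIs in library 1 and 79.6% in library 2. HSC-like nuclei had 5 UMIs in library 1 and 0 in library 2, and cMoP-like nuclei had 0 in both.

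Epor (chr9:21958897-21963506, minus strand), the erythropoietin receptor, was sparse, with 19 UMIs in library 1 and 9 in library 2. EryP-like nuclei held 16 and 5 of them, at 45.6 and 21.3 CPM, and MkP-like nuclei held 2 and 1. Of the 17 ranked classes, 11 had no Epor UMI in either library. All other nuclei together had 3 and 4 UMIs, so the fold of EryP-like nuclei over them was 83.8 (interval 24.0 to 449) in library 1 and 30 (6.47 to 151) in library 2.

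Il3ra (chr14:14346275-14356011, plus strand), the IL-3 receptor alpha chain, varied least clearly. BaP-like nuclei held 79.7 and 120 CPM from 8 and 12 UMIs, and cDCP-like nuclei 30.9 and 124 CPM from 2 and 7 UMIs. BaP-like nuclei were 2.26-fold over the others in library 1 with an interval that includes equality (0.963 to 4.54), and 3.19-fold in library 2 (1.63 to 5.70). With a minimum of 500 genes the log2 fold of BaP-like nuclei went from 1.43 to 0.87, below 2-fold, and cluster 0 stood first. No pair of neighbours in its order had separate intervals. EryP-like nuclei were lowest at 5.70 and 8.53 CPM.

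The ATAC counts came from the same nuclei. The peaks around the receptors had no part in the clustering, but other ATAC peaks did, so the classes are not independent of the ATAC data. They are scaled to 1000000 peak counts (ATAC CPM), with intervals on pairs of counts because 82.5% of the nonzero entries were even. Summed over 50 kb, the class with the most open locus was the class with the most RNA for 4 of the 9 receptors, namely Flt3, Csf3r, Il7r and Epor. With promoter peaks alone it was so for 2, Csf2rb and Epor, and with a minimum of 500 genes for 3, Csf1r, Csf2rb and Il7r, so that no receptor matched under all settings. The same share was not computed for other genes. At Flt3 the 50 kb sums of lymphoid-primed multipotent-like and pDCP-like nuclei were level in library 2, at 309 and 310 ATAC CPM. They were apart in library 1, at 314 and 276. Apart from Il7r the highest class stood little above the other nuclei in these sums, between 1.24-fold, for Flt3 and Epor, and 1.53-fold, for Il3ra. Single classes lay far lower, as Kit at 32.5 and 19.9 ATAC CPM in cMoP-like nuclei against 102 and 105 in EryP-like nuclei. At Il7r, pro-B-like nuclei were 2.96-fold over the others, at 91.8 and 82.4 ATAC CPM (intervals 86.0 to 97.8 and 73.5 to 92.0), against 5.91 and 13.1 in EryP-like nuclei. Such windows hold other genes too. Peaks at the promoters of other genes gave 78.8% of the counts around Epor, 48.7% around Flt3 (the Flt3 promoter peak included, since it also covers the start of Gm26597) and 46.0% around Csf3r, and 0 around Kit, Csf1r, Csf2ra and Il7r. At Csf2ra 1 peak 38.4 kb upstream gave 232 and 203 of the 435 and 403 ATAC CPM in pro-B-like nuclei, the most open class of that window.

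At the promoter peaks, those within 1 kb of a start of the receptor, the fold of the highest class was larger than in the 50 kb sum for 8 of the 9 receptors, and smaller for Il7r, at 1.77. The Epor promoter had 48.4 and 48.3 ATAC CPM in EryP-like nuclei, 3.81-fold over the others, against 3.09 and 5.48 in NeuP-like nuclei. The Flt3 promoter had 58.0 and 58.3 ATAC CPM in lymphoid-primed multipotent-like nuclei and 57.7 and 62.1 in pDCP-like nuclei, although the RNA of these 2 differed. Across the 34 points, promoter counts and RNA went together most for Flt3 (r = 0.81), Epor (r = 0.72) and Kit (r = 0.65), with Csf1r at 0.49 (0.63 in library 1 and 0.32 in library 2). They did not for Il3ra, at -0.70 in library 1 and 0.04 in library 2. The Kit promoter was most open in pro-B-like nuclei at 74.0 and 80.7 ATAC CPM, while their Kit RNA ranked 11 of 17 at 139 and 118 CPM. These correlations are descriptions over points that share libraries and depth.

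**Figure D2:**
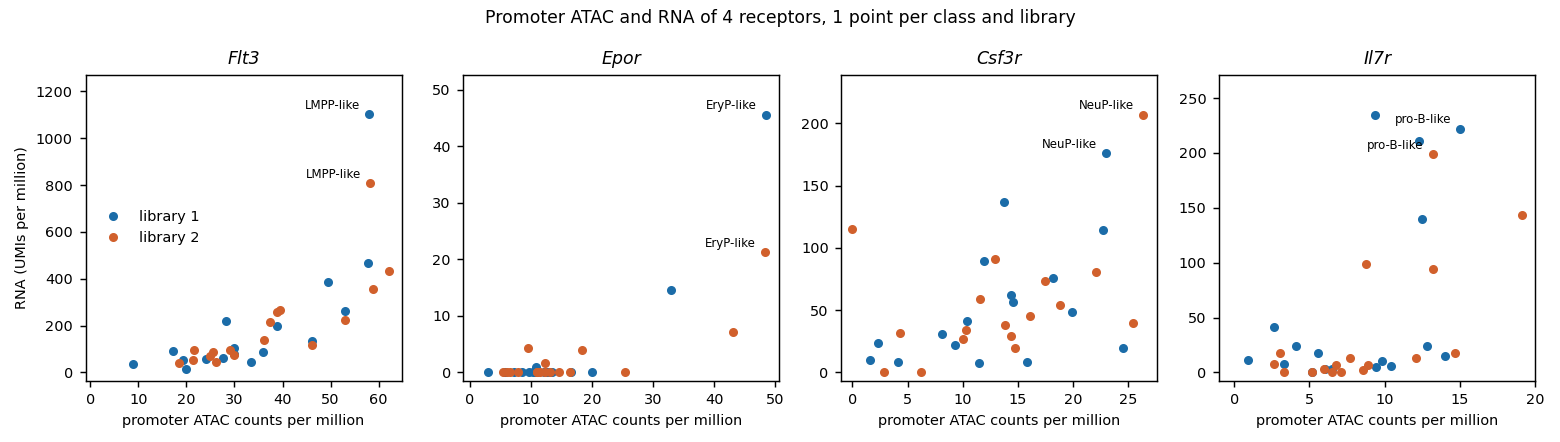
Promoter ATAC CPM (x axis) and RNA in CPM (y axis) of 4 receptors, with 1 point for each of 17 classes in library 1 (blue) and library 2 (orange). LMPP-like stands for lymphoid-primed multipotent-like. The class with the most RNA lies at or near the right edge for Flt3 and Epor, while Il7r has several classes with an open promoter and little RNA.

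Single peaks were sharper than the sums. Of the 160 peaks, 155 held at least 200 counts, and 53 of these were at least 2-fold higher in 1 class than in the other nuclei. That is 34.2%, beside 34.5% of the 158601 such peaks in all, so the share around the receptors was close to that of all peaks. Pro-B-like nuclei were highest at 10 of the 53, EryP-like nuclei at 9, GMP-like nuclei and cluster 1 at 6 each and NeuP-like nuclei at 4. How often each class led over all peaks was not computed, so this is no trait of the receptor loci. A class could lead a peak only with at least 20 counts in each library, which shuts out classes with few counts.

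**Figure D3:**
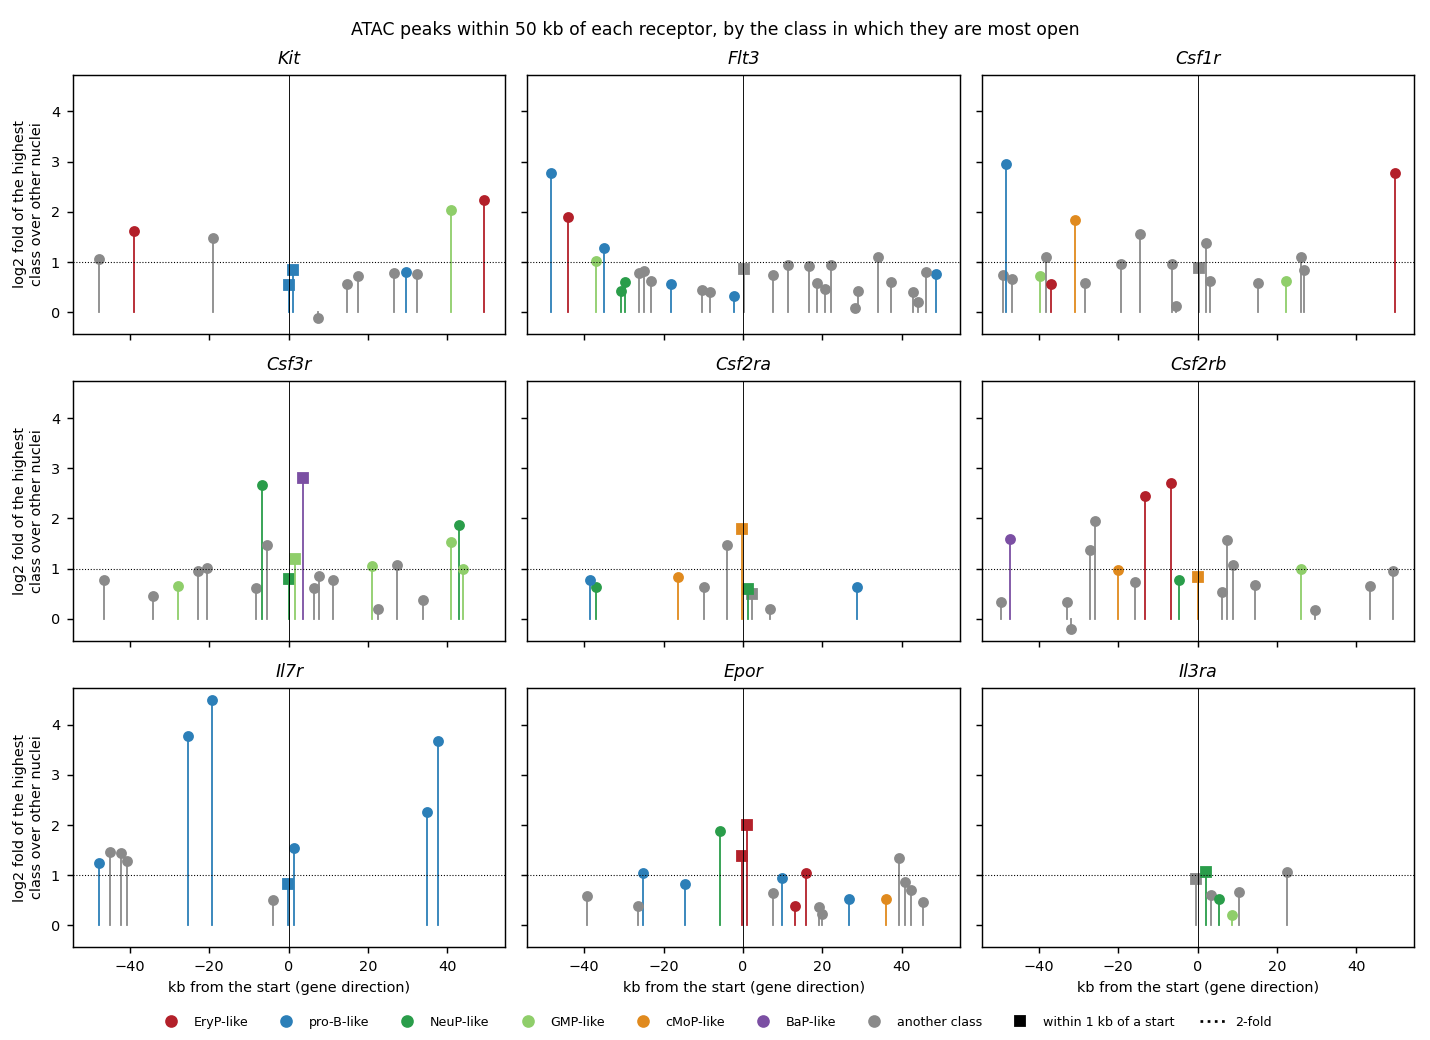
Peaks within 50 kb of each receptor, placed by distance from its start in gene direction (x axis, kb), with the log2 ATAC fold of the highest class over other nuclei (y axis, mean of both libraries). Colours give the class, squares are promoter peaks and the dotted line is 2-fold. The highest points are the pro-B-like peaks upstream of Il7r, 22.6-fold and 13.6-fold.

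The Il7r peaks were the most restricted. Of its 13 peaks, 11 held at least 200 counts and 9 of these were at least 2-fold, beside 34.5% of all such peaks. Of the 9, 6 were highest in pro-B-like nuclei. The peak 19.3 kb upstream had 167 counts in pro-B-like nuclei of library 1 and 41 in library 2, at 8.20 and 5.38 ATAC CPM, 25.1-fold (14.6 to 45.9) and 20.3-fold (10.1 to 41.8) over the other nuclei. The peak 25.3 kb upstream had 227 and 70 counts, 15.6-fold (10.6 to 23.5) and 12-fold (7.48 to 18.9). At the nearer peak B-like nuclei followed at 2.15 and 3.18 ATAC CPM, from 4 and 2 counts. The pro-NK/T-like nuclei had no count there, although their RNA interval met that of pro-B-like nuclei. The Il7r promoter itself did not separate them, at 15.0 and 13.2 ATAC CPM in pro-B-like nuclei, 12.3 and 19.1 in B-like nuclei and 14.0 and 14.7 in cDCP-like nuclei.

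The central 300 bases of both peaks are shown because they carry the largest class differences found around any of the receptors. They lie on chromosome 15 outside annotated exons, at chr15:9549017-9549316 and chr15:9554985-9555284 (GRCm38), and are written on the minus strand, that of the gene. Capitals mark matches, on either strand, to short core motifs of 4 families of blood cell transcription factors. The letters AGATAA were searched for GATA factors. For PU.1 they were GAGGAA. RUNX factors were searched as TGTGGT, and C/EBP factors, which are prominent in granulocytes, as TTGCNNAA.
Il7r -19.3 kb: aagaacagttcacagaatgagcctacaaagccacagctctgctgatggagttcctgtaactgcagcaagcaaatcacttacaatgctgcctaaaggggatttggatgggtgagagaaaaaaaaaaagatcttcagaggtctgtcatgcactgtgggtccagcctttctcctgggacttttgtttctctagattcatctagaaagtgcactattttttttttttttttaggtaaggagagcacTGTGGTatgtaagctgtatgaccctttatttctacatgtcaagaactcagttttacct
Il7r -25.3 kb: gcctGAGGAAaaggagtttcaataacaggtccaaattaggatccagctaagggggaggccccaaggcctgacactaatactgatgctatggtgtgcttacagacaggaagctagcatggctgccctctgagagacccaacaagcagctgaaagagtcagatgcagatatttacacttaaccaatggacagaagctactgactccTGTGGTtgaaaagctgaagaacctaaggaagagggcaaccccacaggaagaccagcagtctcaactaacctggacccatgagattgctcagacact
Both held TGTGGT, at base 243 and base 205, and the farther one also GAGGAA at base 5. These letters are common, since 29.7% of all peaks cut to the same length held TGTGGT and 40.7% held GAGGAA, and a match is a description of the letters and not a bound site.

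Of the 21 Csf3r peaks with at least 200 counts, 9 were at least 2-fold, beside 34.5% of all such peaks. Of the 9, 3 were highest in GMP-like nuclei, 2 in NeuP-like nuclei and 1 each in BaP-like, cDCP-like and pDCP-like nuclei and cluster 1. The peak 6.7 kb upstream had 40.7 and 29.6 ATAC CPM in NeuP-like nuclei (92 and 108 counts), 9.37-fold (6.69 to 12.9) and 4.29-fold (3.17 to 5.71) over the others. The cMoP-like nuclei followed at 13.7 and 11.2 ATAC CPM, and GMP-like nuclei held 8.88 and 10.4. NeuP-like nuclei, the class with the most Csf3r RNA, were thus also the most open here. A peak 43.0 kb downstream of the start had the same leading class, at 9.28 and 11.2 ATAC CPM. The promoters of Mrps15 and Oscp1 lie between it and Csf3r, and on which gene it acts was not tested. By contrast a peak 3.56 kb downstream, within an intron and within 1 kb of a further annotated start, was highest in BaP-like nuclei at 16.0 and 10.8 ATAC CPM and next in EryP-like nuclei at 7.34 and 8.20. Their Csf3r RNA was low, at 19.9 and 40.0 CPM in BaP-like and 8.55 and 38.4 CPM in EryP-like nuclei.

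The centre of the upstream peak at chr4:126017702-126018001 is shown because this peak had the largest fold at Csf3r outside the promoter peaks. It held 3 matches to TTGCNNAA, all reading TTGCACAA, at bases 109, 142 and 158 of the plus strand.
Csf3r -6.7 kb: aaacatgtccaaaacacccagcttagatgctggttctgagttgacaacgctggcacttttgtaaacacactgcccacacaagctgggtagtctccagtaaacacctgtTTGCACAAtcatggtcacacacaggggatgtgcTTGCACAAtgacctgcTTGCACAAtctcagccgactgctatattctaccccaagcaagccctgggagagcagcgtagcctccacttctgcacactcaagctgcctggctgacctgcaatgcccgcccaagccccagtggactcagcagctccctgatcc
Of all peaks cut to 300 bases, 14.2% held at least 1 match to TTGCNNAA and 0.106% held at least 3. The cut at 3 was taken from this window, so the second share is no fair measure of rarity. Binding was not tested.

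Epor had 2 promoter peaks. The one centred 0.92 kb downstream of the start had 44.1 and 43.4 ATAC CPM in EryP-like nuclei, 4.23-fold (3.45 to 5.14) and 3.78-fold (3.01 to 4.70), followed by MkP-like nuclei at 28.0 and 34.7. The one centred 0.3 kb upstream was smaller, at 4.30 and 4.92 ATAC CPM in EryP-like nuclei, and MkP-like nuclei held 4.95 and 8.35 from 12 and 25 counts. EryP-like and MkP-like nuclei, the only ranked classes with more than 1 Epor UMI over both libraries, were thus the most open at both. The 300 bases before the Epor start, chr9:21963507-21963806 on the minus strand, are shown for this reason.
Epor upstream: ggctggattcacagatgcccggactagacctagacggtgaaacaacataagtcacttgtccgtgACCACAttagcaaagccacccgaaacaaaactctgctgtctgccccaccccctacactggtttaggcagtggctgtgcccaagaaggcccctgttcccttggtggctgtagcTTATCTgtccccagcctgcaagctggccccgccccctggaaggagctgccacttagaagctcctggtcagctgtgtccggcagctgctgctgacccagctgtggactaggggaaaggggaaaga
They held 1 match to AGATAA, as TTATCT at base 177, and 1 to TGTGGT, as ACCACA at base 65. AGATAA was found in 11.2% of all promoter windows of this length and in 13.3% of peaks.

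Several distal peaks were most open in a class that was not the highest by RNA of the receptor beside them. The peak 48.3 kb upstream of Flt3 was highest in pro-B-like nuclei, at 12.2 and 14.7 ATAC CPM (248 and 112 counts), 6.21-fold (4.72 to 8.19) and 7.57-fold (5.40 to 10.5), while their Flt3 RNA ranked 9 of 17 at 88.5 and 138 CPM. The peak 48.3 kb upstream of Csf1r was also highest in pro-B-like nuclei, at 15.5 and 11.8 ATAC CPM, and Csf1r RNA there was 2.88 and 20.1 CPM. By contrast a Csf1r peak 30.8 kb upstream, of smaller fold, was highest in cMoP-like nuclei at 42.8 and 36.3 ATAC CPM. That class was the first by Csf1r RNA. At Csf2rb the peaks 6.78 and 13.2 kb upstream were open in EryP-like, BaP-like and MkP-like nuclei. EryP-like nuclei held 9.14 and 6.56 ATAC CPM at the nearer one and BaP-like nuclei 7.13 and 7.91, with Csf2rb RNA of 2.85 and 12.8 CPM in EryP-like but 59.7 and 60.0 CPM in BaP-like nuclei, the third class in its order. The peak 49.6 kb downstream of the Csf1r start grouped these classes as well, at 30.8 and 26.0 ATAC CPM in EryP-like, 31.6 and 25.4 in BaP-like and 25.6 and 28.7 in MkP-like nuclei. Whether these peaks act on the receptor or on another gene was not tested.

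**Figure D4:**
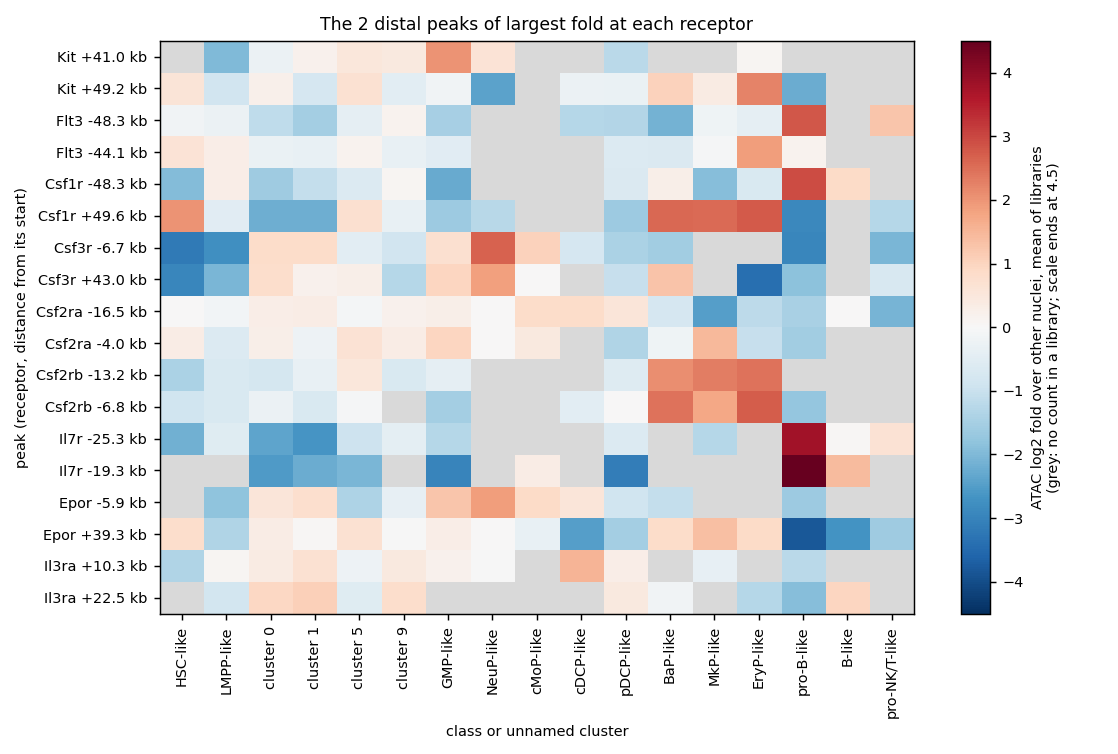
ATAC log2 fold of each class over the other nuclei (colour, mean of both libraries, grey where a library has no count) for the 2 distal peaks of largest fold at each receptor (rows) in the 17 ranked classes (columns). Il7r, Flt3 and Csf1r each have a peak that is darkest in pro-B-like nuclei, and the Csf2rb peaks and the downstream Csf1r peak are raised in BaP-like, MkP-like and EryP-like nuclei together.

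Kit had its largest folds within the gene. The peak 49.2 kb downstream of the start, in an intron, was highest in EryP-like nuclei at 10.7 and 10.3 ATAC CPM (60 and 44 counts), 4.96-fold (3.21 to 7.45) and 4.5-fold (2.74 to 7.09). The peak 41.0 kb downstream was highest in GMP-like nuclei at 5.17 and 4.53 ATAC CPM. HSC-like nuclei, whose Kit RNA interval overlapped that of EryP-like nuclei, led neither. Csf2ra differed most at its promoter, where the peak centred 0.19 kb upstream had 51.4 and 32.8 ATAC CPM in cMoP-like and 41.1 and 32.9 in NeuP-like nuclei, the classes with the most Csf2ra RNA. Il3ra had no fold above 2.09 at its 7 peaks, among classes with at least 20 counts in each library.

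The centres of the Flt3, Csf2rb and Kit peaks are shown because their leading class was not the first by RNA (EryP-like nuclei were second for Kit), at chr5:147448652-147448951 (minus strand), chr15:78318819-78319118 and chr5:75624007-75624306 (plus strand).
Flt3 -48.3 kb: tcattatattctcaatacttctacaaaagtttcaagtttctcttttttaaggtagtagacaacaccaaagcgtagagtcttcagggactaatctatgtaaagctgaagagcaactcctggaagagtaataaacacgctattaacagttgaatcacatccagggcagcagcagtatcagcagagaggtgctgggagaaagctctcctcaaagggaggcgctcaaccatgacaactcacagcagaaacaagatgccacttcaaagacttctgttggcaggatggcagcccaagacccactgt
Csf2rb -6.8 kb: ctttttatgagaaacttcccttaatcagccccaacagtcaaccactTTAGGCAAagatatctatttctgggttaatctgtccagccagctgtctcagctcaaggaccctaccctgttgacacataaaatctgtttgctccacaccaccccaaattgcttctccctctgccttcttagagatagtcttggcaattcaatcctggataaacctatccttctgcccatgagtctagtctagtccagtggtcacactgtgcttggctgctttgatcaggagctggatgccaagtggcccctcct
Kit +49.2 kb: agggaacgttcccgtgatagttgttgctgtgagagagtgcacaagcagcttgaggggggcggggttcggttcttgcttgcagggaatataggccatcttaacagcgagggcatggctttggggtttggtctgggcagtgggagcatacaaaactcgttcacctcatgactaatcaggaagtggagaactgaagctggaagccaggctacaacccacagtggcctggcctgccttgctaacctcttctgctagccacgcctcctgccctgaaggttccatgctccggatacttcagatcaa
The Csf2rb window held 1 match to TTGCNNAA, as TTAGGCAA at base 47, and the other windows held none of the 4 motifs.

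Between the libraries, over all nuclei, Il7r was 0.387-fold in library 2 relative to library 1 (interval 0.319 to 0.468) and Epor 0.473-fold (0.188 to 1.1). These 2 receptors were at or below 0.5-fold, beside 6.78% of all genes tested, and none was at or above 2-fold, beside 2.75%. Past 2-fold in either direction were 2 of 9, beside 9.53%, and 1, Il7r, with a minimum of 500 genes or with median-of-ratios scaling. The median gene was itself shifted by -0.31 on the log2 scale. Kit was 0.646-fold (0.594 to 0.702), Flt3 0.792-fold (0.731 to 0.859), Csf2rb 1.37-fold (1.09 to 1.73) and Csf3r 1.25-fold (1.06 to 1.47). The intervals of Csf1r, Csf2ra and Il3ra included equality, at 1.01, 0.968 and 1.08-fold. The libraries differed in make-up, with pro-B-like nuclei 17.7% of library 1 and 6.77% of library 2, and GMP-like nuclei 5.15% and 9.42%.

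In the classes with the most Il7r UMIs, pro-B-like and lymphoid-primed multipotent-like, the difference was smaller. It was 0.894-fold in pro-B-like nuclei (0.673 to 1.17) and 0.705-fold in lymphoid-primed multipotent-like nuclei (0.472 to 1.04). In B-like nuclei it was 0.678-fold (0.201 to 1.84, from 22 and 5 UMIs). Pro-NK/T-like nuclei were at 0.399-fold (0.117 to 1.1, from 20 and 5 UMIs), close to the ratio over all nuclei. Whether the make-up of the libraries accounts for the Il7r difference over all nuclei was not tested. None of the 6 classes with more than 3 Il7r UMIs in each library had an interval that left out equality. Kit in contrast was lower in library 2 in 13 of the 15 classes compared, and in 10 of them the interval left out equality. It was lowest in GMP-like nuclei, at 0.399-fold (0.295 to 0.538), against 0.740-fold (0.572 to 0.952) in EryP-like nuclei. The median gene was lower in most classes too, with a log2 ratio of -0.54 in GMP-like nuclei. There 17.7% of the genes compared were at or below 0.5-fold, against 4.42% in EryP-like nuclei. The share of genes lower in as many classes as Kit was not computed. Kit was below the median gene in 11 of 15 classes, and its interval lay wholly below it in GMP-like nuclei. In cluster 5 the upper limit (0.756-fold) met the median gene (log2 ratio -0.4) to within rounding. Flt3 had no such common direction, with 6 classes higher and 9 lower, and its interval left out equality in 3. It was 3.1-fold in GMP-like nuclei (1.07 to 12.2, from 4 and 25 UMIs) and 1.56-fold in pro-B-like nuclei (1.08 to 2.24). In lymphoid-primed multipotent-like nuclei it was 0.734-fold (0.641 to 0.840), an interval that includes the median gene there (log2 ratio -0.29). Csf2ra was lower in library 2 in 9 of the 12 classes with more than 3 UMIs in each, and its interval left out equality in 2, GMP-like nuclei at 0.510-fold (0.311 to 0.836) and cluster 0 at 0.663-fold (0.479 to 0.916), where the median gene was at a log2 ratio of -0.45. Both of these intervals include the median gene of their class. With 1 library each, a difference between libraries cannot be told apart from differences in preparation, and the intervals are not adjusted for the number of classes.

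**Figure D5:**
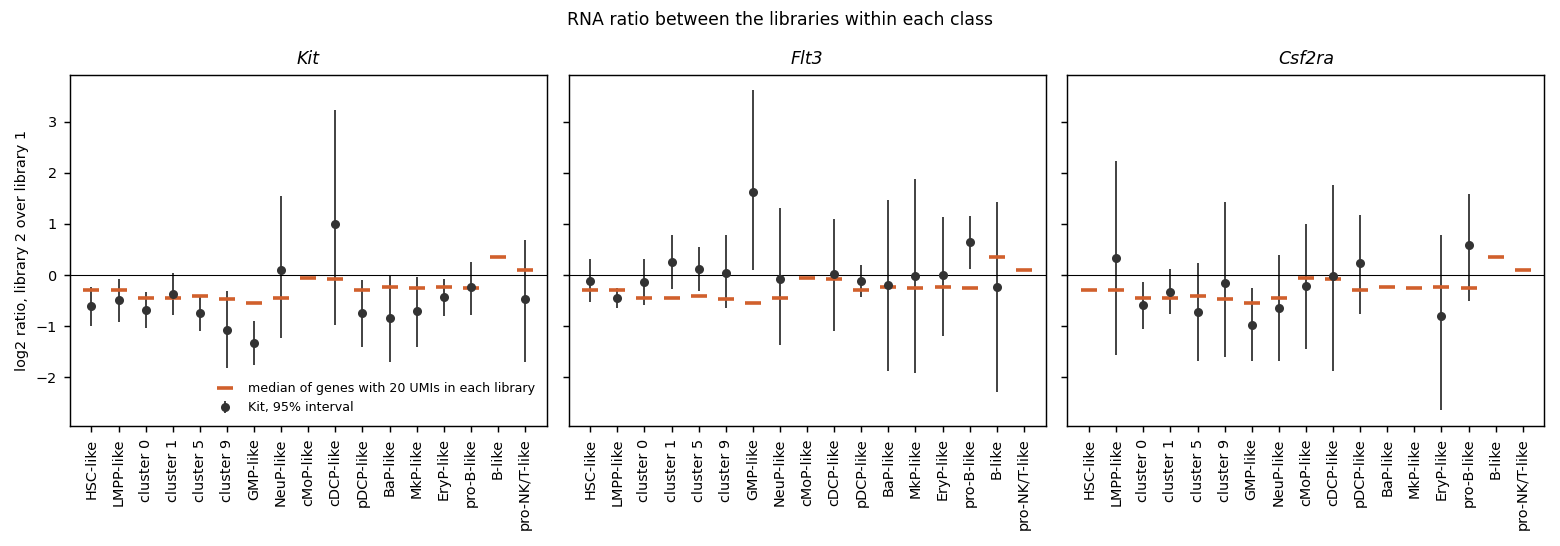
Log2 ratio of RNA in library 2 over library 1 within each class (y axis) for Kit, Flt3 and Csf2ra, with 95% intervals, for classes with more than 3 UMIs in each library. Orange marks give the median gene, over genes counted 20 times or more in each library. Kit lies below 0 in 13 of 15 classes, while Flt3 lies on both sides.

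The genes whose levels most resembled each receptor over the 34 points, among 6904 genes with at least 200 UMIs, were Cdk6 for Kit (r = 0.86), H2afy for Flt3 (0.80), Fgd4 for Csf1r (0.75), Mrpl14 and Abcd2 for Csf3r (0.76 each), Arid3a for Csf2ra (0.81), Mtus1 for Csf2rb (0.81), Cyfip2 for Il7r (0.80), Zg16 for Epor (0.72) and Gmnn for Il3ra (0.77). Spi1, which encodes the myeloid and lymphoid factor PU.1, came second for Csf2ra (0.78), and Ebf1 and Bach2, transcription factors of B cells, were among the 3 most alike for Il7r (0.79 and 0.78). For Epor the like genes Zg16, Slc25a21 and Mfsd2b were all among the leading genes of the EryP-like cluster.

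Other receptors and ligands of these pathways were counted from fixed lists. Of 27 partner chains and other cytokine receptors, 20 had at least 20 UMIs and 11 of these were at least 2-fold in 1 class, beside 30.9% of all genes tested. Il1rl1, the IL-33 receptor, was highest in BaP-like nuclei from 20 and 10 UMIs, 22.0-fold over the others, and Il2rb, a chain of the IL-2 and IL-15 receptors, in pro-NK/T-like nuclei at 423 and 319 CPM. Il1r1, the IL-1 receptor, was highest in lymphoid-primed multipotent-like nuclei at 101 and 87.0 CPM, the class that led for Flt3. Of 15 other receptor tyrosine kinases, 11 had at least 20 UMIs and 8 were at least 2-fold in 1 class, beside the same 30.9%, with Fgfr1 at 82.5 and 39.5 CPM and Tie1 at 46.6 and 43.4 CPM highest in HSC-like nuclei.

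The ligands of the receptors were counted as well. Of 12 ligands, 6 had at least 20 UMIs over both libraries and 2 of these, Csf1 and Tslp, were at least 2-fold in 1 class, beside 30.9% of all genes. Tslp, a cytokine whose receptor includes the Il7r chain, had 20 and 41 UMIs, and GMP-like nuclei held 6 and 17 of them, 6.82-fold over the others. Kitl had 11 and 9 UMIs, Flt3l 33 and 17, and Csf1, which encodes M-CSF, 48 and 32. Csf1 was highest in BaP-like nuclei at 89.6 and 120 CPM from 9 and 12 UMIs. Il3 had none in either library, which allows up to 3 UMIs (a 1-sided limit, where the intervals above are 2-sided), and Csf2 and Csf3 had no more than 2 in a library.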

How the data were processed

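Per the labels and the methods of the study, the authors aligned both modalities with Cell Ranger ARC 2.0.0 to GRCm38 (mm10) and listed Seurat 4.0.3 and Signac 1.3.0. They deposited 1 matrix of raw counts, UMIs per gene and ATAC counts per peak, with a barcode list and a feature list whose coordinates are per the file headers. The matrix has 0 mitochondrial gene rows, so the study's limit of 25% mitochondrial RNA could not be applied. Barcodes were kept from 200 genes upward if their ATAC counts lay between 1000 and 50000. Doublets were not removed in the main analysis. Seurat 5.3.0 in R 4.3.3 joined the libraries (anchors, 3000 variable genes, 30 principal components, LSI components 2 to 30, weighted nearest neighbours, resolution 0.8), without the 9 receptors and their peaks. Component values were rounded before the neighbour search so that clusters repeat exactly. A cluster was named when at least 3 of a class's markers were raised at least 2-fold with 10 UMIs each, 1 of them ranked in the cluster's top 10 by fold and no rival class had more in that top 10. The mean log2 ratio of that class's detected markers also had to be at least 1. These ratios had 10 CPM added to both levels. Of the 18 marker lists, those for eosinophil progenitors, plasma cells, macrophages, endothelial and stromal cells named no cluster. Counts were summed per class and library in Python 3.11.15 (scipy 1.17.1), and a fold is the mean of the log2 folds of both libraries over all other nuclei. The highest class needed at least 4 UMIs, or 20 ATAC counts for a peak, in each library. With 1 sample per group and no map from suffix to sample, no test was made. The RNA sums were tested on simulated counts with 1 known fold in well-counted genes. Raised sparse genes, smaller folds and ATAC peaks were not part of that test. Genes named are the 9 receptors, listed pathway genes and the most alike genes. Leading genes that describe clusters and genes whose promoters lie near a receptor are named too. Peaks are the promoter peaks and the 2 others of largest fold, with further peaks at Csf1r and Csf2ra. The receptors, lists and rules were chosen with earlier results of these data known. Promoter windows come from RefSeq (GRCm38). Protein sequences were not used here. A gene of the pathway lists is not reported here.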

Additional observations from a re-analysis of the deposited data

How the results depend on the processing

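Of 100 values recomputed under the alternatives, 94 stayed within their counting interval or within 1.5 times the count, 6 moved and 0 reversed. The count past 2-fold without a minimum of UMIs could not change, since every receptor held at least 20 UMIs. Of 84 fold values in the class named, 81 stayed at or above 2-fold. With a minimum of 500 genes, which left 4169 and 1988 nuclei, the log2 fold of Flt3 in lymphoid-primed multipotent-like nuclei went from 2.77 to 2.61, and 1 receptor in place of 2 was past 2-fold between the libraries (Il7r). The same count of 1 came with median-of-ratios scaling. The log2 fold of Kit in HSC-like nuclei fell from 1.40 to 0.90 both at resolution 0.4 and with RNA neighbours alone. The receptors whose highest class by RNA was also highest by locus ATAC were 2 in place of 4 with promoter peaks alone, and between 3 and 5 otherwise, but not always the same ones: with 500 genes Csf1r, Csf2rb and Il7r, and in a 10 kb window Csf2rb in place of Il7r. The cause of these moves was not tested. With summed libraries only the folds were recomputed, and the highest class was not. The highest class was the same for 9 receptors with all UMIs in the total, median-of-ratios scaling, doublets removed or receptors kept in the clustering. For 7 of 9 it was the same with limits on halved ATAC counts or no correction between libraries. It was the same for 7 of 8 receptors at resolution 0.4, 4 of 6 with 500 genes and 3 of 7 with RNA alone, the receptors whose class was not found being left out of these totals. No paired analysis was possible because each group has 1 sample and no test was made. Cells of 5 mice were pooled, so no interval covers the spread between animals, and levels of 6 UMIs or fewer are loose.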
